A study of Danio rerio with 6 samples.

Results

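The 7 genes described here are nt5c2l1, ucp3 and nmt1b, which were chosen by their rise together with red blood cell genes in sih tails, and the named paralogs of the last 2, ucp1, ucp2, nmt1a and nmt2. They were found by symbol in a table of 25745 zebrafish genes, each under 1 identifier: nt5c2l1 (ENSDARG00000034852), ucp3 (ENSDARG00000091209), ucp1 (ENSDARG00000023151), ucp2 (ENSDARG00000043154), nmt1b (ENSDARG00000057206), nmt1a (ENSDARG00000052966) and nmt2 (ENSDARG00000021808). Because sih against WT is the contrast that chose nt5c2l1, ucp3 and nmt1b, their change is a description and carries no test. The 4 paralogs were taken by name, so their change was tested.

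RNA came from tail-derived cells of Danio rerio embryos of strain AB at 28 hours after fertilisation, grown under normal conditions. Of the 6 libraries, 3 were wild type (WT) and 3 came from sih mutants, whose hearts do not contract. Nothing in the labels tells how many embryos went into a library, whether libraries came from separate clutches, or how mutants were recognised, so the spread between libraries may be technical. Libraries held 21240839 to 27222955 reads assigned to genes. Levels are normalised read counts: reads per gene scaled by 1 factor per library.

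nt5c2l1 belongs to the cytosolic 5′-nucleotidases of the NT5C2 type, which in mammals remove the phosphate from IMP and GMP and so set how much purine nucleotide a cell keeps. The uncoupling proteins (UCPs) are carriers of the inner mitochondrial membrane. In mammals UCP1 makes heat in brown fat by letting protons leak, UCP2 is found in many tissues and UCP3 mainly in skeletal muscle. Other listed names are UCP3 for zebrafish ucp1 and ucp2l for ucp3, so no mammalian role is read from the names. N-myristoyltransferases (NMTs) attach the fatty acid myristate to a glycine at the start of a protein, which helps the protein bind membranes. The a and b copies of nmt1 carry the usual names of a pair left by the genome duplication of bony fish.

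Markers of tail tissues were present and those of the heart nearly absent. Yolk and liver markers were present too, with a sum over 6 genes of 94180.1 to 172847 normalised counts in WT. The sum of 5 epidermis markers was 616941 to 868908 in WT. The summed level of 6 skeletal muscle markers was 1325490 to 2184080 normalised counts in WT, that of 6 tail bud genes 946 to 1319, and that of 4 heart markers 0 to 9.08. tnnt2a, the heart gene mutated in sih, had 0 to 9 reads per library, too few to check the genotype labels. Libraries that share a replicate number were alike beyond their genotype, so a fit with the number as a block (the paired fit) is given beside the unblocked one. Calls are at an adjusted p under 0.05 by limma on log2(value + 1), over all 22813 genes tested. The unblocked fit called 0 genes (0%), with 235 genes at an unadjusted p under 0.05, and edgeR without a block also called 0. The paired fit called 2.77% of genes higher in sih and 2.07% lower.

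nt5c2l1 was at 471, 287 and 345 normalised counts in WT replicates 1, 2 and 3 and at 1857, 1441 and 1263 in the sih replicates. Every sih library lay above every WT library, and the lowest sih value was far above the highest WT value. The means were 368 ± 94.4 and 1521 ± 305 (SD, n = 3 each), a ratio of 4.14. Within pairs 1, 2 and 3 sih was 3.93-, 5.02- and 3.66-fold higher.

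ucp3 had the fewest reads of the 7 genes in every library except sih replicate 2, where ucp1 had fewer (186). The ucp3 reads were 18, 54 and 49 in WT replicates 1, 2 and 3 and 94, 267 and 139 in sih. Its level was 16.5, 44.6 and 48.2 normalised counts in WT replicates 1, 2 and 3 and 107, 247 and 199 in sih. Replicate 1 was the low one in both genotypes, and the groups did not overlap. The means were 36.4 ± 17.3 and 184 ± 71.5 (SD, n = 3), a ratio of 5.06, and the ratios within pairs were 6.15, 5.45 and 4.07. They are taken on value + 1, which lowers the ratio of a scarce gene slightly.

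nmt1b was almost the same in the 3 WT libraries, at 176, 162 and 162 normalised counts, and spread widely in sih, at 898, 1075 and 582. The groups did not overlap. The means were 167 ± 8.11 and 852 ± 250.2 (SD, n = 3), a ratio of 5.11. The ratio was 5.08 in pair 1, 6.61 in pair 2 and 3.57 in pair 3.

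**Figure D1:**
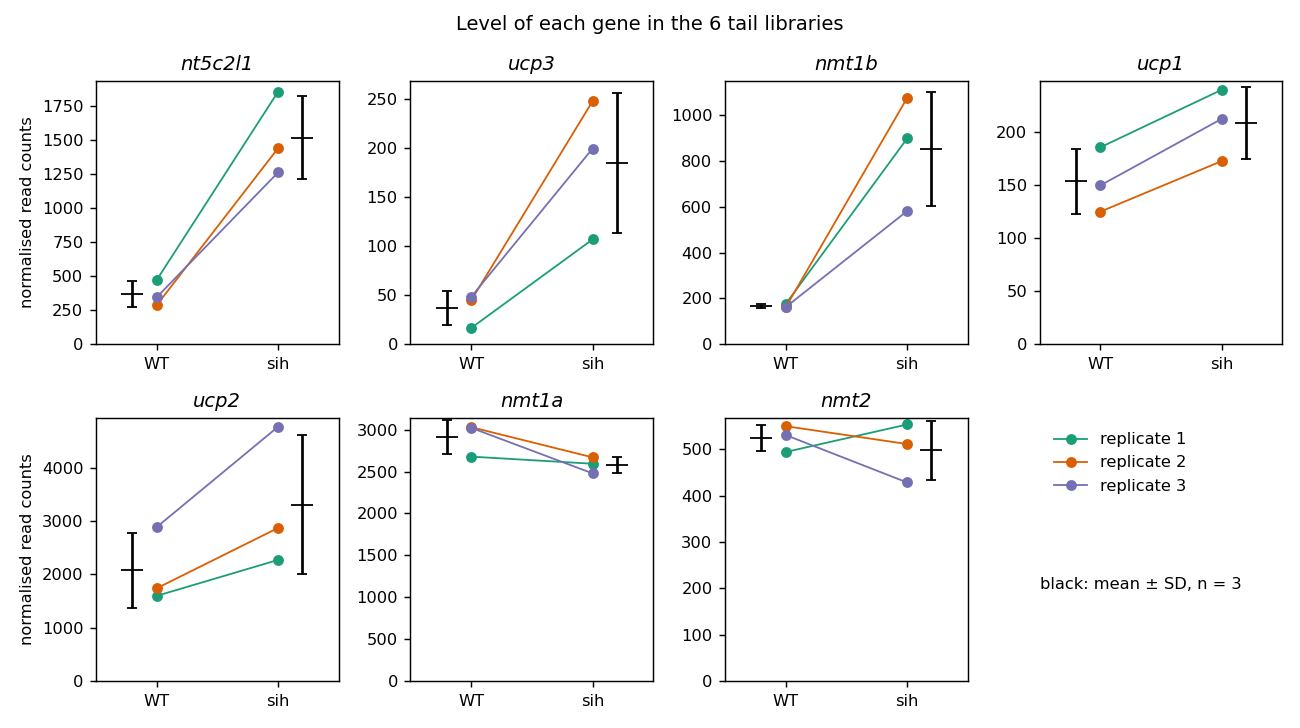
Normalised read counts (vertical axes, each from 0) of the 7 genes in WT and sih tails; coloured lines join libraries of the same replicate number and black marks give the mean ± SD of 3 libraries. nt5c2l1, ucp3 and nmt1b are higher in every sih library than in any WT library, whereas the ranges of ucp1, ucp2 and nmt2 overlap.

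Of the paralogs, ucp2 rose in the paired fit, ucp1 was higher in each pair without passing in limma, and neither nmt1a nor nmt2 passed. ucp2 was at 1594, 1736 and 2884 normalised counts in WT replicates 1, 2 and 3 and at 2269, 2868 and 4766 in sih. The genotypes overlapped, because replicate 3 was high and replicate 1 low in both. Within pairs sih was 1.42-, 1.65- and 1.65-fold higher.

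The change of ucp2 was 0.65 ± 0.08 (log2, SE of the paired fit; 95% interval 0.48 to 0.82), with an adjusted p = 7.08e-05 by limma. Its means were 2071 ± 707 in WT and 3301 ± 1304 in sih (SD, n = 3). Without the block the SE was 0.35 and the adjusted p about 1 (0.999992), at an unadjusted p = 0.0953 by limma. Scaled by library totals, where the median change of all genes was -0.18, ucp2 was at 0.47 and stayed called in the paired fit (adjusted p = 0.00327).

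The skeletal muscle markers, like ucp2, were highest in replicate 3 of both genotypes. Of those 6 genes 2 were called higher in the paired fit, beside 2.77% of all genes, and their summed level was 1597110 to 2884340 in sih. Their sums, in which actc1b was the largest part, were 1.226-, 1.203- and 1.321-fold higher in sih in pairs 1, 2 and 3. The 2 called markers, actc1b and myog, had log2 changes of 0.41 and 0.52, beside 0.65 for ucp2. myog was at 287, 549 and 825 normalised counts in WT replicates 1, 2 and 3 and at 500, 768 and 1009 in sih. The summed level of 6 yolk and liver markers was also highest in replicate 3 of both genotypes. It was 94180.1 to 172847 in WT and 93064 to 213139 in sih. Of the 6 markers 4 were called higher and 1, apobl, lower, beside 2.77% and 2.07% of all genes. In neither genotype was apobl highest in replicate 3. Of 5 epidermis markers 2 were called higher, with sums of 616941 to 868908 and 745176 to 973429. These sums too were highest in replicate 3 of both genotypes. So were the sums of the notochord, neural tube and red cell markers, so this pattern was not particular to muscle or yolk. The part of these tissues in the ucp2 result was not tested.

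ucp1 was at 185, 125 and 149 normalised counts in WT replicates 1, 2 and 3 and 239, 172 and 212 in sih. The lowest sih library lay below the highest WT library. Means were 153 ± 30.4 and 208 ± 33.7 (SD, n = 3). The change was 0.44 ± 0.14 (log2, SE) with a 95% interval of 0.15 to 0.74 and an adjusted p = 0.0752 by limma in the paired fit. edgeR with the same block gave 0.0382 and DESeq2 0.137, so the call depended on the test.

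nmt1a, the copy that duplicates nmt1b, was at 2678, 3030.2 and 3022 normalised counts in WT and 2593, 2669.6 and 2478 in sih. All 3 sih libraries lay below the WT libraries, but the highest sih value, 2669.6, nearly met the lowest WT value, 2678. The means were 2910.2 ± 201 in WT and 2580.4 ± 96.3 in sih (SD, n = 3). The change was -0.17 ± 0.08 (log2, SE), with an interval of -0.34 to -0.00 and an adjusted p = 0.260 by limma in the paired fit. Scaled by library totals it was -0.36, when the median of all genes was -0.18, and there it was called (adjusted p = 0.0120).

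nmt2, the more distant NMT gene, was at 494, 549.9 and 531 normalised counts in WT and 554, 511 and 428 in sih. The groups overlapped and the pairs went both ways, with log2 ratios of 0.16, -0.10 and -0.31. The change was -0.08 ± 0.11 (log2, SE), with an interval of -0.32 to 0.15 and an adjusted p = 0.747 by limma in the paired fit. Without replicate 3 it turned to 0.03.

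Over all 7 genes, the genotypes did not overlap for nt5c2l1, ucp3 and nmt1b, with sih above, and for nmt1a, with sih below. Among all genes tested, 2.10% had every sih library above every WT library and 2.12% had every one below. The first 3 were chosen for this contrast, so nothing is read from their count. The groups of nmt1a nearly touched, so nothing is read from it either.

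**Figure D2:**
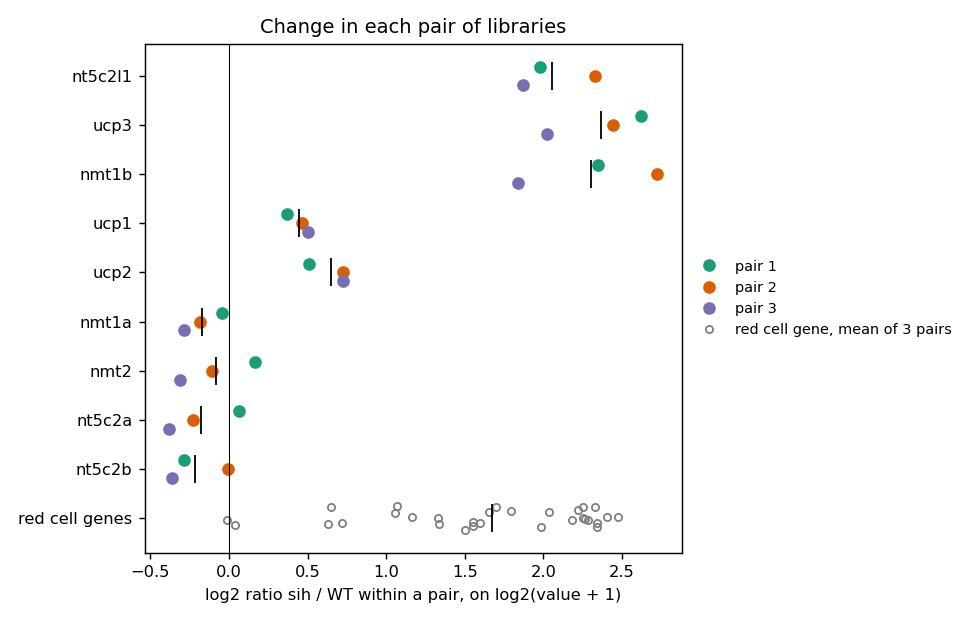
Log2 ratio of sih to WT within each pair of libraries (horizontal axis) for the 7 genes, 2 further NT5C2 paralogs and, as open grey circles, the mean change of each of 30 red cell genes; black bars mark means, or the median for the red cell genes. The 3 chosen genes lie between 1.84 and 2.72 in every pair, ucp1 and ucp2 between 0.37 and 0.72, and the others between -0.38 and 0.16.

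The makeup of each family changed accordingly, given here as a share of the family's reads. Shares compare libraries, not genes, since reads were not corrected for transcript length. nmt1b gave 5.26%, 4.32% and 4.37% of NMT reads in WT replicates 1, 2 and 3 and 22.2%, 25.3% and 16.7% in sih. As nmt1b was chosen on this contrast, its shares are a description. The share of nmt1a went from 80.8 ± 0.71% to 66.0 ± 4.46% (SD, n = 3). It falls whenever nmt1b rises in the same sum, so it is a description as well.

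The sum of the 3 NMT genes was 3602 ± 220 normalised counts in WT and 3930.0 ± 397 in sih, a ratio of 1.09. Without nmt1b it was 3435 ± 228 and 3078 ± 150 (SD, n = 3). By library the sum of all 3 was 3349, 3742 and 3715 in WT replicates 1, 2 and 3 and 4045, 4256 and 3488 in sih. The genotypes overlapped, the sum was lower in sih in pair 3, and its change was not tested. The mean of the sum differed by less than that of nmt1b, as the means of nmt1a and nmt2 were lower in sih. The paired limma fit called neither the change of nmt1a nor that of nmt2 (adjusted p = 0.260 and 0.747). How the authors' counting treated reads that match more than 1 paralog is not given in the sources used here.

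Among the UCP genes, ucp3 gave 0.919%, 2.34% and 1.56% of reads in WT replicates 1, 2 and 3 and 4.08%, 7.52% and 3.85% in sih. ucp2 held most of them in both genotypes, 91.2 ± 2.41% in WT and 88.7 ± 2.93% in sih (SD, n = 3). The family's sum was 2261 ± 712 normalised counts in WT and 3693 ± 1328 in sih, and 2225 ± 701 and 3509 ± 1299.9 without ucp3. Most of the difference between the sums was that of ucp2.

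nt5c2l1 has the related genes nt5c2a and nt5c2b in the table. It gave 17.7%, 12.9% and 18.2% of the reads of these 3 genes in WT replicates 1, 2 and 3 and 47.0%, 45.2% and 51.4% in sih. nt5c2a had means of 1173 ± 159 (WT) and 1058 ± 305 (sih) normalised counts, and nt5c2b at 716 ± 166 and 623 ± 174 (SD, n = 3). Neither passed in the paired limma fit (-0.18 ± 0.10, adjusted p = 0.338, and -0.22 ± 0.10, adjusted p = 0.268).

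**Figure D3:**
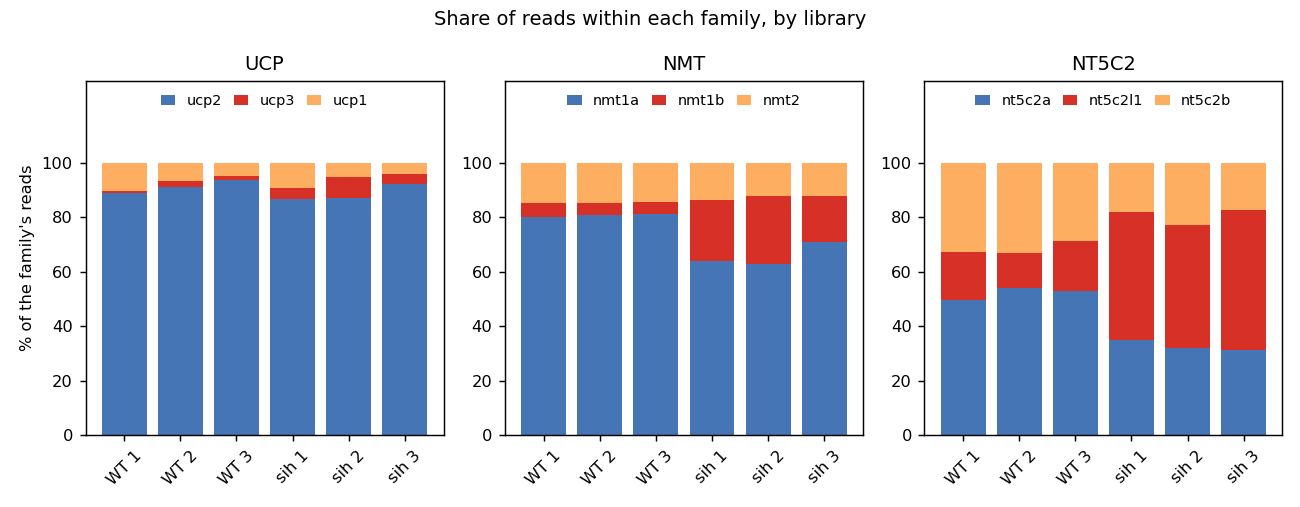
Share of each family's reads (stacked bars, percent) taken by each gene in the 6 libraries, for the UCP, NMT and NT5C2 genes. The red part, the gene chosen on its rise, is larger in all 3 sih libraries than in any WT library of each family, reaching 51.4% for nt5c2l1, 25.3% for nmt1b and 7.52% for ucp3.

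The rises of nt5c2l1, ucp3 and nmt1b lay above the median and within the range of red cell genes, the group they were chosen with. A list of 30 red cell genes had a median log2 change of 1.68 (quartiles 1.21 and 2.25). In the paired fit 27 of the 30 were called higher, beside 2.77% of all genes. The list was written with earlier results of these data known, so this count and the likeness in size are descriptions and no test. Of these 30 genes, 11 changed more than nt5c2l1 (2.06), 2 more than ucp3 (2.36) and 5 more than nmt1b (2.30). The summed level of 9 red cell marker genes was 32529 to 46697 normalised counts in WT and 152185 to 205351 in sih. It was 4.31-, 6.27- and 4.40-fold higher in pairs 1, 2 and 3. In bulk tails, more red cells and more RNA per red cell cannot be told apart.

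Among markers of other blood cells, 2 of 5 tested thrombocyte markers were called higher in the paired fit, beside 2.77% of all genes: GP9 and gp1bb, surface glycoproteins of those cells. The other tested ones, mpl, f5 and thbs1b, had log2 changes of -1.54, -0.39 and -0.07 and were not called. The summed level of the 6 markers overlapped (1464 to 3328 in WT, 1703 to 3133 in sih). Most of this sum was thbs1b (1126 to 3007 in WT, 1153 to 2720 in sih), so its overlap says little about the other markers. GP9 (12.4 to 17.7 in WT, 64.7 to 105 in sih) and gp1bb (52.3 to 109, and 215 to 271) lay higher in sih without overlap. f5 lay lower without overlap (205 to 251, and 125 to 200). mpl was scarce, never above 11 reads per library. The thrombocyte integrin gene itga2b had no read in WT and 1 read in 1 sih library. Of 6 neutrophil markers 4 were called lower, beside 2.07% of all genes, with a summed level of 1354 to 1756 in WT and 639 to 891 in sih. Of 5 macrophage markers 0 were called, beside 2.77% of all genes higher and 2.07% lower. Their part in the rise of the 3 genes was not tested.

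The 3 chosen genes were also set against the reads of the 30 red cell genes, as a description, since they were chosen for rising with such genes. nt5c2l1 had 7.86 ± 2.31 reads per 1000 red cell reads in WT and 7.63 ± 2.80 in sih (SD, n = 3). ucp3 had 0.769 ± 0.363 and 0.871 ± 0.239, and nmt1b 3.58 ± 0.577 and 4.21 ± 1.41.

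These ratios depended on the globins. With globin genes left out of the reads compared, nt5c2l1 had 31.7 ± 5.19 reads per 1000 in WT and 49.2 ± 4.29 in sih. nmt1b had 14.6 ± 0.638 and 27.5 ± 6.38, and ucp3 3.28 ± 1.72 and 6.16 ± 2.66 (SD, n = 3). The remaining red cell genes include sptb and ank1, parts of the membrane skeleton, which did not pass and hold many reads in both genotypes. The part of sptb and ank1 in these ratios was not tested.

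The replicate number offers a readout that the choice of genes did not use directly, since in this balanced design it is independent of genotype. Its test shares the residual variance of the paired genotype test, so it is not wholly separate from the choice of nt5c2l1, ucp3 and nmt1b. limma's F test of the replicate term called 4 of the 7 genes, beside 59.1% of all genes, so variation with the replicate number was common. ucp2 (adjusted p = 4.07e-07), ucp3 (0.000187), nt5c2l1 (0.00179) and ucp1 (0.0409) were called. nmt1b (0.0631), nmt2 (0.550) and nmt1a (0.609) were not; edgeR's test called nmt1b as well (0.00425).

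nt5c2l1, ucp3 and nmt1b had different patterns across replicates. Averaged over both genotypes, replicate 1 lay above the gene's mean by 0.35 (log2) for nt5c2l1 and below it by 0.83 for ucp3, whose deviation was -0.83. nmt1b was near its mean in replicates 1 and 2 (0.10 and 0.17) and lower in replicate 3 (-0.27). That lower value came from sih (898, 1075 and 582 normalised counts), as the WT libraries were alike (176, 162 and 162). ucp2 was highest in replicate 3 (0.56), and nmt1a stayed within 0.06 of its mean.

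Red cell genes also differed in this respect. Replicate 1 was the highest for 14 of the 30 and the lowest for 8. The red cell gene nearest to nt5c2l1 over the 3 deviations was slc4a1a (0.44, -0.26 and -0.18), which encodes an anion exchanger of red cells. The nearest to ucp3 was blvrb (-0.59, 0.28 and 0.31), a reductase that acts on biliverdin. The nearest to nmt1b was cahz (0.12, 0.12 and -0.24), the carbonic anhydrase of fish red cells. The paralogs had red cell genes as near: both ucp2 and nmt1a were nearest to a copy of hbbe1.1, at root mean square differences of 0.043 and 0.033, against 0.066 for nt5c2l1, 0.18 for ucp3 and 0.037 for nmt1b. With 3 points per gene these are descriptions only, and the likeness is not particular to the chosen genes.

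**Figure D4:**
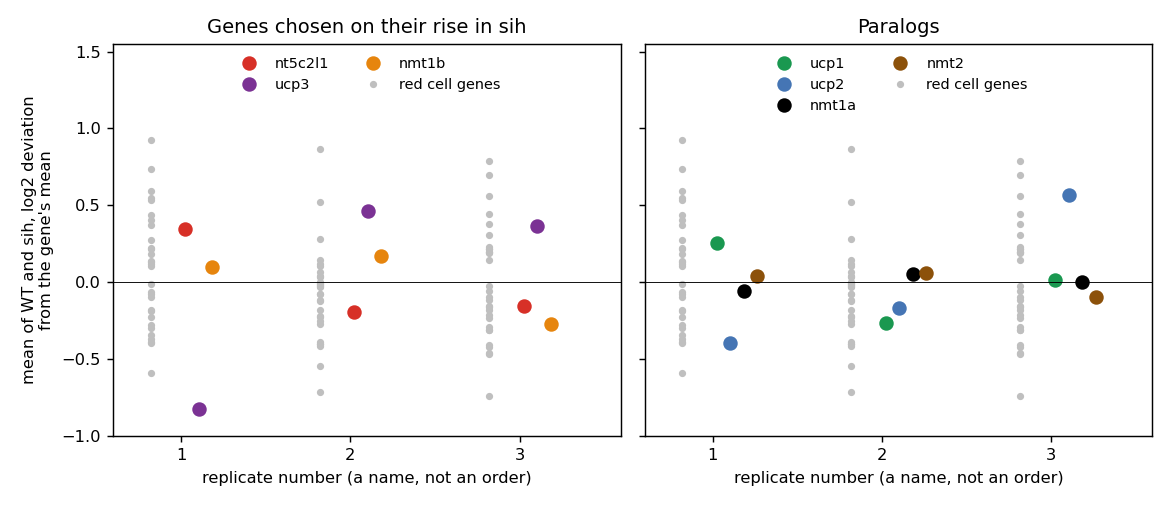
Deviation of each replicate number from the gene's own mean (log2, mean of the WT and sih library), for the 3 chosen genes and the 4 paralogs, with 30 red cell genes as grey points. nt5c2l1 is highest and ucp3 lowest in replicate 1, nmt1b is lowest in replicate 3, and nmt1a lies within 0.06 of 0 in all 3.

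The genes with the most similar profiles over the 6 libraries were sought among 13248 genes with a mean of at least 50 normalised counts. Likeness was the root mean square difference of centred log2 values, which includes the contrast that chose the genes. For nt5c2l1 the 5 nearest were slc4a1a (0.13), the erythroid transcription factor gene gata1a (0.18), alas2 (0.20), which starts haem synthesis, the elastase gene ela2 (0.22) and the bile acid transporter family gene slc10a4 (0.23). For nmt1b they were a copy of the embryonic globin hbbe1.1 (0.21), alas2 (0.24), HBM (0.25), a name of an alpha-type globin in human, the embryonic globin hbz (0.28) and the transcription factor gene klf4 (0.28).

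ucp3 had no neighbour as close. Its 5 nearest were hbbe3 (0.41), si:busm1-118j2.5 (0.41), rfesd (0.44), HBM (0.45) and hbae3 (0.48), of which hbbe3 and hbae3 are embryonic globins. The 3 genes were chosen for rising with red cell genes, so nothing is read from the red cell genes among their nearest profiles. ucp2 was nearest to asb2b (0.08), lxn (0.09) and triobp (0.10), ucp1 to CR847562.1 (0.08), cylda (0.08) and grnb (0.09), nmt1a to ppm1g, mgat1a and dnaja2l (0.03 to 0.04), and nmt2 to C9H2orf49, ptplb and cds2 (0.04).

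Genes beside the members were looked up by their order. In RefSeq's gene order for the assembly GRCz12tu, which is not the build of the deposited table, ucp3 and ucp2 lie next to each other. nmt1a lies beside plcd3a and nmt1b beside plcd3b, a pair of copies of the same phospholipase C gene. Of 24 other genes within 2 places of a member, 15 were in the table, and 0 were called in the paired limma fit, with log2 changes from -0.40 to 0.55. With 2.77% of all genes called higher and 2.07% lower, 0 of 15 is near the background. dnajb13, on the far side of ucp2, had means of 41.5 ± 1.07 (WT) and 34.6 ± 4.27 (sih) normalised counts (SD, n = 3). plcd3b was at 27.9 ± 8.56 and 26.6 ± 15.1.

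Genes of related families and pathways were counted from 5 lists, leaving the 7 out. The unblocked limma and edgeR fits called 0 genes of any list, as they called 0 of all 22813 genes, so nothing about the lists is read from this. By limma 0 list genes were at an unadjusted p under 0.05, beside 235 of all 22813. In the paired fit 0 of 10 tested 5′-nucleotidases were called. With 2.77% of all genes called higher and 2.07% lower, this is near the background. nt5c3, whose human counterpart clears pyrimidine nucleotides from maturing red cells, had 3003 ± 275 normalised counts in WT libraries and 3528 ± 453 in sih libraries (0.23 ± 0.08, adjusted p = 0.115). The median over the list was 0.06, that over all genes -0.0042.

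Of 36 genes of purine salvage and breakdown, 2 rose and 1 fell in the paired fit (5.56% and 2.78%, beside 2.77% and 2.07% of all genes), and the median was -0.01. AK1, an adenylate kinase of the cytosol, rose by 0.35 ± 0.08 (adjusted p = 0.0103). AK1 went from 22788 ± 5743 to 29135 ± 7400.1 normalised counts (SD, n = 3). hprt1, which salvages hypoxanthine and guanine, fell from 575 ± 56.7 to 425 ± 44.9 without overlap (-0.44 ± 0.11, adjusted p = 0.0214). Without pair 3 neither AK1 nor hprt1 kept its call (limma adjusted p = 0.128 and 0.131), and hprt1 was not called without pair 2 either (0.0585). Among all genes, 506 were called without pair 3 and 1482 without pair 2, against 1105 with all pairs, so losing a call without pair 3 was common.

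Of 9 mitochondrial carriers related to the UCPs, 0 were called in the paired fit and the median change was -0.04. That count too is near the background of 2.77% of all genes called higher and 2.07% lower. slc25a14, a brain-type relative of the UCPs, had means of 486 ± 160 (WT) and 381 ± 96.1 (sih) normalised counts (-0.33 ± 0.11, adjusted p = 0.0960). slc25a27, another relative, was at 50.1 ± 23.2 and 47.2 ± 14.4 (SD, n = 3). Of 31 genes of fatty acid oxidation and its regulators, slc25a20 was the one called, higher in sih (3.23%, beside 2.77% of all genes; 0.32 ± 0.09, adjusted p = 0.0391), and the median was -0.01. It imports acyl-carnitines into mitochondria, and its call was lost without pair 3 (limma adjusted p = 0.421), where fewer genes were called in all.

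The N-myristoylation list held 56 tested genes, which are enzymes that act before the NMTs and proteins known as substrates in mammals. In the paired fit 0 rose and 4 fell (0% and 7.14%, beside 2.77% and 2.07% of all genes). The median change was -0.08; scaled by library totals it was -0.25, when that of all genes was -0.18. The genes were arf1 and arf4a, small GTPases of Golgi transport, gorasp1, a protein that links Golgi stacks, and akap12b, a scaffold of protein kinase A.

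arf1 went from 3435 ± 708 to 2534 ± 804 normalised counts (SD, n = 3), a change of -0.46 ± 0.08 (adjusted p = 0.00270), and remained called without any 1 pair. The changes of akap12b, arf4a and gorasp1 were -0.44 ± 0.10, -0.36 ± 0.09 and -0.36 ± 0.10 (adjusted p = 0.0203, 0.0258 and 0.0412). akap12b lost its call without pair 1 (adjusted p = 0.127). arf4a lost it without pair 2 or 3 (0.126 and 0.0694), and gorasp1 without any 1 pair (0.0731, 0.116 and 0.149). Fewer genes in all were called without pair 3 than with all pairs.

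Of the methionine aminopeptidases, which free the glycine that NMTs modify, 0 passed in the paired limma fit. Of all genes 2.77% passed as higher and 2.07% as lower. metap1 had means of 4740.0 ± 1295 (WT) and 5035 ± 1378 (sih) normalised counts, and metap2b at 1148 ± 119 and 1063 ± 151 (SD, n = 3). metap1d, the mitochondrial form, had a change of 0.42 ± 0.13 (adjusted p = 0.0703 by limma, and 0.0307 by edgeR with the same block, which called it). acbd6, which binds acyl-CoA and works with NMT in human cells, was at 349.6 ± 23.5 and 319.6 ± 87.0.

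**Figure D5:**
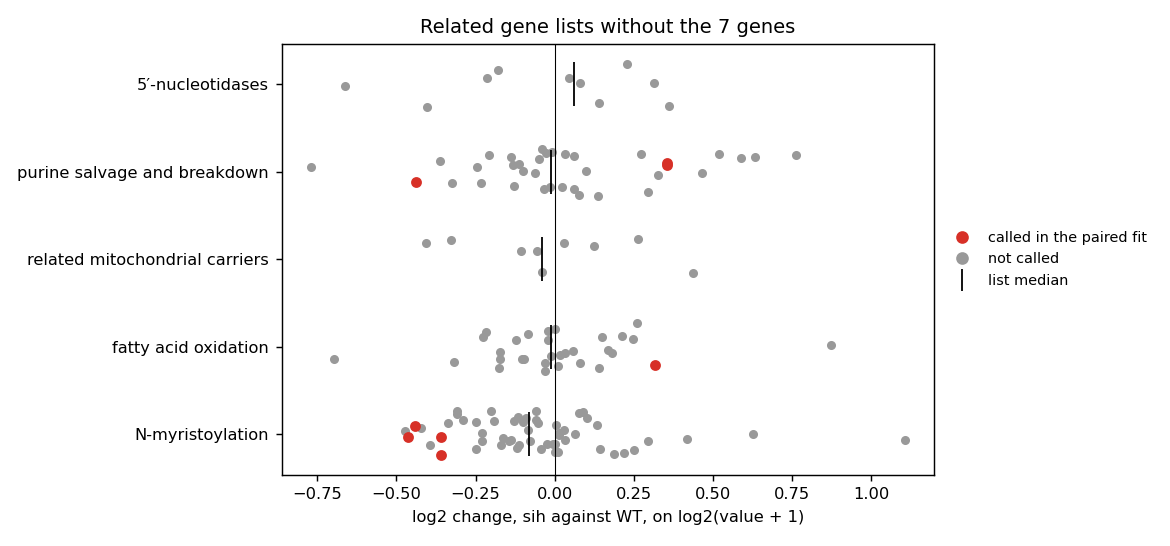
Log2 change of sih against WT (horizontal axis) for every tested gene of 5 related lists without the 7 genes; red points were called in the paired limma fit, grey points were not, and black bars mark list medians. The medians lie between -0.08 and 0.06, and the red points are 2 higher and 1 lower in the purine list, 1 higher among fatty acid oxidation genes and 4 lower in the N-myristoylation list.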

How the data were processed

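Deposited values are normalised read counts, a signal scale on which the authors scaled each library by 1 factor; within a library every value above 0 is a whole multiple of its smallest (100% of values, tolerance 1e-06). The whole reads recovered so summed to 21240839 to 27222955 per library. A TMM scaling computed here from them left the fitted changes as they were. The submitters' processing notes name the build Zv9, TopHat, HTSeq 0.5.3p5 and edgeR 3.0.8; annotation, strand setting and filters are not stated there, so reads of overlapping or antisense genes cannot be separated.

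The main test was limma 3.58.1 (R 4.3.3) (trend option, two-sided) on log2(value + 1), for genes averaging 1 or more in WT or in sih, Benjamini-Hochberg adjusted. Count models, edgeR 4.0.16 and DESeq2 1.42.0, were run on recovered reads. Fold changes on this scale understate changes of scarce genes. The labels number both genotypes 1 to 3. Over 13248 genes, same-numbered libraries' deviations from their genotype means correlated at 0.932, 0.884 and 0.852, so the numbers were taken to pair the libraries; what a number marks is not in the labels. With 3 libraries against 3 and no block, an exact permutation test cannot go below 0.1. Permuting within 3 pairs has a higher floor, so the paired calls also rest on variance shared across genes. Low depth of ucp3 limits its precision. The limma and edgeR fits, with and without the block, were tested on simulated data with known pairs. DESeq2 and the descriptions were not.

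Members and lists were chosen with earlier results of these data known. The rule for named genes took all 7, the called genes of each list (up to 6 per direction; 1 of them is not reported here), nt5c2a and nt5c2b, and the nearest profiles; nt5c3, slc25a14, slc25a27, the methionine aminopeptidases, acbd6 and 2 gene neighbours were added after their values were seen, as were the descriptions by gene neighbour, by red cell reads and by nearest replicate pattern. All 7 identifiers were found in the table of gene names. List names were matched by symbol or, failing that, identifier; unmatched names were not used.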

Additional observations from a re-analysis of the deposited data

How the results depend on the processing

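The log2 changes of nt5c2l1 (1.87 to 2.25), ucp3 (1.89 to 2.71) and nmt1b (2.09 to 2.55) kept their sign and stayed within 1 SD between replicates of the reported values under all 21 alternatives. These genes were chosen on this contrast, so this is a description. The replicate block, the gene filters and the TMM scaling left these limma changes as they were, and so are no check. Leaving out 1 of 3 libraries cannot move a group mean by 1 SD. ucp2 was called under every paired alternative run, at 0.65 with the replicate block (also with TMM scaling, an alternative added after seeing the data), 0.65 with edgeR, 0.67 with DESeq2, 0.65 with a pseudocount of 0.1 and 0.47 with library totals, and under no unblocked one; without pair 1, 2 or 3 it was 0.72, 0.62 and 0.62, and without 1 library 0.35 to 0.92. ucp1 was called only by edgeR with the replicate block (0.45) and nmt1a only with library totals and the block (-0.36). nmt2 reversed to 0.021 without sih replicate 3 and to 0.029 without pair 3; without 1 library it ranged from -0.16 to 0.021, and without pair 1 it was -0.21; the cause was not tested. The unblocked fits called 0 genes of any list, as they called 0 among all genes. In the order nucleotidases, purine, carriers, fatty acid oxidation and N-myristoylation, the paired fit called 0, 3, 0, 1 and 4 (the same with TMM), edgeR with the block 1, 4, 0, 1 and 6, DESeq2 with the block 0, 3, 0, 1 and 3, a pseudocount of 0.1 with the block 0, 2, 0, 0 and 1, and library totals with the block 2, 5, 1, 4 and 13; leaving out libraries or pairs gave 0 to 1, 0 to 3, 0, 0 to 1 and 0 to 5. Among all 22813 genes these 5 block settings called 1105, 1799, 947, 410 and 2212, in the order given. DESeq2 gave no adjusted p for 11942 genes. With library totals 180 calls were higher and 2032 lower, at a median change of -0.18 over all genes. Leaving out pair 1, 2 or 3 gave 1248, 1482 and 506 calls among all genes. List counts of different settings are therefore not comparable without these totals. A fit of 2 pairs rests on variance shared across genes. The shares of nmt1b and ucp3 stayed within 1 SD without any 1 library, which a mean of 3 libraries must do.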
